A study of Mus musculus with 288 samples.

Results

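The clustered protocadherins were described as the 57 genes of the 35904 in the tables whose symbols name a member of the Pcdha, Pcdhb or Pcdhg cluster. Of these, 13 belong to the alpha cluster (11 alternate genes with Pcdhac1 and Pcdhac2), 22 to the beta cluster and 22 to the gamma cluster (12 of subfamily A, 7 of subfamily B, and Pcdhgc3, Pcdhgc4 and Pcdhgc5). The group was chosen by a measured value: the level of Pcdhgc4 in the lung was much lower after intermittent hypoxia (IH) than in normoxia. For this reason the comparison of treatments in the lung is given as a description with no test, and nothing is read from it. The treatment comparison in the other 5 tissues was not used in that choice, whereas the lung libraries of both treatments were, and they also stand in the tissue comparison and in the course over the day.

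Male wild-type C57BL/6J mice, 8 weeks old, breathed room air throughout (normoxia) or went through IH, in which oxygen cycled between 21% and 8%, in their resting phase for 7 days, followed by 2 days in constant darkness in normal oxygen. Cerebellum, lung, muscle, heart, kidney and liver were collected at 8 time points 3 hours apart, with 3 replicates per time point and treatment, which gives 24 libraries per tissue and treatment and 288 in all. Each library holds poly(A) RNA of a whole tissue, so fewer cells of a type and less RNA per cell cannot be told apart. The mice of the separate time points and treatments are different animals, but tissues of the same mouse may stand in several groups, which the labels do not record.

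Clustered protocadherins are cell-surface proteins of the cadherin superfamily that are best known from neurons, where they bind the same isoforms on neighbouring membranes and give each neuron a molecular identity. Each alpha and gamma gene has a large first exon with its own promoter, which codes for the extracellular part, the membrane span and a short tail, and which is spliced to constant exons that all genes of that cluster share. The beta genes lack constant exons. Alternate genes are switched on in combinations that differ from neuron to neuron, through promoters bound by CTCF and cohesin, whereas the C-type genes (Pcdhac1, Pcdhac2, Pcdhgc3, Pcdhgc4 and Pcdhgc5) are regulated apart from them. Pcdhgc4 is known for its role in the survival of neurons in the mouse.

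All 57 genes lie on the plus strand of chromosome 18 (GRCm38, GENCODE mouse release 21). The gamma genes share 3 constant exons of 59, 89 and 1968 bases, at 37825021 to 37825079, 37833265 to 37833353 and 37839903 to 37841870. The alpha genes share exons of 59, 89 and 2712 bases, at 37156155 to 37156213, 37159265 to 37159353 and 37184946 to 37187657. Pcdhgc3 spans 37806364 to 37841873, Pcdhgc4 37815079 to 37841873, Pcdhgc5 37819513 to 37841873 and Pcdhac2 37143503 to 37187657. Shared bases make up 37.87% of the exonic bases of Pcdhgc4, 38.53% of those of Pcdhgc3, 27.78% of those of Pcdhgc5 and 48.57% of those of Pcdhac2. Pcdhgc4 is annotated with 3 transcripts, namely a coding transcript of 5024 bases with 42.18% of it shared, a retained intron of 3100 bases with no shared base, and a short transcript of 2272 bases with 93.27% of it shared and 153 bases of its own. A read from a constant exon matches every gene of its cluster, and the authors' quantification with Kallisto divides such reads among transcripts by estimation. The part of this division in any value below was not tested. Pcdhb21 and Pcdhb22 overlap each other on the same strand, so their values are uncertain in the same way.

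The deposited values are transcript abundances per length scaled to a fixed sum (TPM), so levels of different genes may be compared within a library. Library totals lay between 989211 and 999188 TPM, the depth behind them is unknown, and 0 pairs of libraries were identical. Of 288 libraries, 286 had the markers of their own tissue as the highest of the 6 tissue lists. The others were the liver IH library of replicate 2 at 13:30, with liver markers at 2.07% of the liver median and heart markers at 31.6% of the heart median, and the cerebellum IH library of replicate 3 at 1:30, with cerebellum markers at 8.53% and heart markers at 35.8%. In 11 libraries, 7 of lung, 2 of liver and 2 of cerebellum and each after IH, the markers of the own tissue summed to less than 40% of that tissue's median. The mean number of genes detected was 22694 in the lung in normoxia and 25455 after IH, and 25124 and 21447 in the heart.

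The cerebellum and the lung held the most clustered protocadherin genes at a mean of 1 TPM or more. In normoxia, the mean reached 1 TPM for 32 of the 57 genes in the cerebellum and for 25 in the lung, against 5 in muscle and 2 each in the heart, kidney and liver. Genes with a mean below 0.1 TPM numbered 53 for liver, 29 for kidney, 20 for heart, 16 for muscle, 10 for lung and 1 for cerebellum. The highest mean of a gene was in the cerebellum for 37 genes and in the lung for 20. After IH these numbers were 34 and 23, and 48 of 57 genes had the same highest tissue in both treatments.

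**Figure D1:**
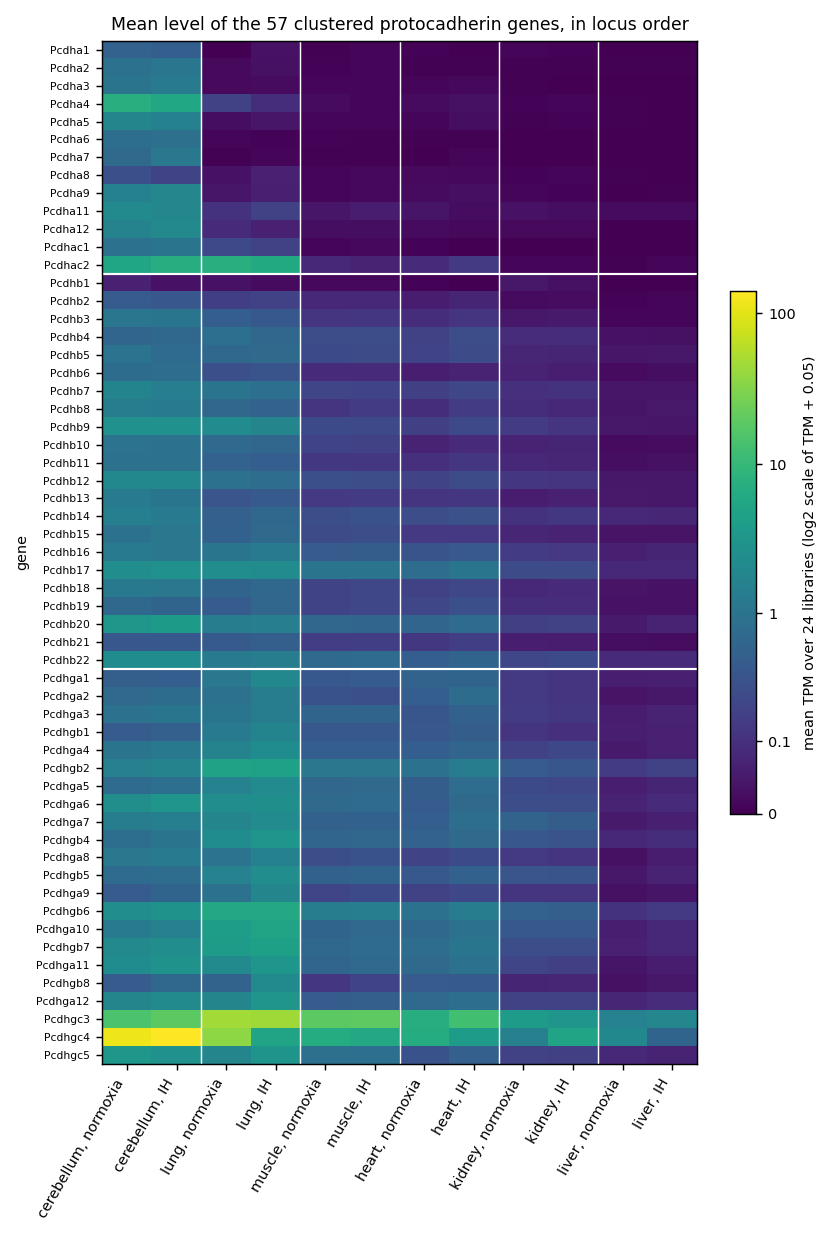
Mean TPM of each of the 57 genes (rows, in locus order from the alpha to the gamma cluster, white lines between clusters) in each tissue and treatment (columns, mean of 24 libraries), with colour on a log2 scale of TPM + 0.05. The alpha genes are bright in the cerebellum alone apart from Pcdhac2, the gamma genes are brightest in the lung and cerebellum, and Pcdhgc3 and Pcdhgc4 stand above the rest in most tissues.

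The subfamilies divided between these tissues. All 11 alternate alpha genes had their highest mean in the cerebellum in normoxia, as did 19 of 22 beta genes, with the other 3 beta genes highest in the lung. Of the 12 gamma A genes, 8 were highest in the lung and 4 in the cerebellum, and after IH 11 and 1. All 7 gamma B genes were highest in the lung. Among the C-type genes in normoxia, Pcdhac1, Pcdhgc4 and Pcdhgc5 were highest in the cerebellum and Pcdhac2 and Pcdhgc3 in the lung. After IH the mean of Pcdhac2 was the higher in the cerebellum, at 6.95 against 6.14 TPM in the lung, and that of Pcdhgc5 in the lung, at 3.02 against 2.69 TPM, each by less than 1 SD.

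Pcdha4 was the most abundant alternate alpha gene of the cerebellum in normoxia, with a lowest value of 2.07, a median of 7.55 and a highest value of 12.8 TPM over 24 libraries. In the lung its mean was 0.185 TPM, the highest there too, and its highest lung library at 0.545 TPM lay under its lowest cerebellum library. In muscle, heart, kidney and liver, Pcdha11 was the highest alternate alpha gene, with means of at most 0.031 TPM. The lowest alternate alpha gene of the cerebellum was Pcdha8 at a mean of 0.294 TPM.

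Pcdhb20 led the beta genes in the cerebellum, with values from 1.80 to 5.73 TPM around a median of 3.38 TPM in normoxia. Pcdhb17 led them in the lung at a mean of 2.39 ± 0.391 TPM (SD, n = 24), in muscle at 1.00, in the heart at 0.807 and in the kidney at 0.261 TPM. In the liver Pcdhb22 was highest at 0.0796 TPM. Pcdhb1 was the lowest beta gene of the cerebellum at 0.0534 TPM.

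Pcdhgb6 was the highest gamma B gene in 5 of 6 tissues, at a mean of 5.95 TPM in the lung, 2.44 in the cerebellum, 1.37 in muscle, 0.919 in the heart and 0.550 TPM in the kidney. In the liver it was Pcdhgb2 at 0.156 TPM. The highest gamma A gene changed with the tissue: Pcdhga10 at 4.24 TPM in the lung, Pcdhga6 at 2.49 in the cerebellum and 0.716 in muscle, Pcdhga11 at 0.738 in the heart, Pcdhga7 at 0.582 in the kidney and Pcdhga12 at 0.0665 TPM in the liver. The lowest of the cerebellum were Pcdhga9 at 0.450 and Pcdhgb1 at 0.451 TPM.

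The order of genes along the chromosome was set beside their level. Across genes, which are not independent replicates and share reads, Spearman's rho between position and mean TPM in normoxia was 0.25 for the 11 alternate alpha genes, 0.37 for the 22 beta genes and 0.36 for the 19 gamma A and B genes in the cerebellum. In the lung rho was 0.55, 0.34 and 0.28. For the beta genes it lay between 0.34 and 0.68 in the 6 tissues in normoxia. For the gamma A and B genes it was -0.03 in the liver, 0.06 in muscle and 0.15 in the kidney, and for the alternate alpha genes 0.16 in the liver.

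Pcdhgc4 was by far the most abundant clustered protocadherin of the cerebellum, with a lowest value of 62.3, a median of 114 and a highest value of 169 TPM in normoxia, and 12.04, 152 and 221 TPM after IH. The lowest IH library is the one at 1:30 whose cerebellum markers were low. Pcdhgc4 made up 75.4% of the summed gamma TPM of the cerebellum in normoxia and 75.1% after IH. In normoxia the order of means was cerebellum 115 ± 29.6, lung 36.8 ± 24.8, heart 6.83 ± 5.404, muscle 6.68 ± 3.02, liver 2.00 ± 1.43 and kidney 1.55 ± 0.790 TPM (SD, n = 24 each). The lowest cerebellum library was above every normoxia library of heart, muscle, liver and kidney, but not above every lung library, of which the highest held 80.2 TPM. Heart and muscle, and likewise liver and kidney, differed in mean by less than 1 SD. After IH the order was cerebellum, muscle, kidney, lung, heart and liver, with means of 6.06 ± 2.60, 5.10 ± 2.48, 5.04 ± 4.60 and 4.00 ± 3.81 TPM from muscle to heart, which also lie within 1 SD of each other, and 0.604 ± 0.523 TPM in the liver.

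Pcdhgc3 followed another order: lung, muscle, cerebellum, heart, kidney and liver in both treatments. In normoxia its lung libraries held 10.2 to 74.8 TPM around a median of 49.8, muscle 9.42 to 30.9 around 19.54, and cerebellum 3.34 to 69.9 around 10.8 TPM. Heart followed with a median of 6.65, kidney with 3.497 and liver with 1.11 TPM. Neighbouring tissues in this order overlapped in normoxia in each of the 5 cases. In the cerebellum Pcdhgc3 was the lower gene of the pair in normoxia, with its highest library just above the lowest value of Pcdhgc4, whereas in muscle and the lung its median was the higher of the pair.

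The other C-type genes were lower. Pcdhac2 had a median of 7.52 TPM in the lung and 4.69 TPM in the cerebellum in normoxia, with overlapping ranges of 1.95 to 11.0 and 1.53 to 15.3 TPM. It made up 89.5% of the alpha TPM of the lung, and its mean was 0.0829 TPM in the heart and 0.0698 TPM in muscle. Pcdhgc5 had means of 3.30 ± 3.33 TPM in the cerebellum, 1.83 ± 1.03 in the lung and 0.876 ± 0.440 in muscle in normoxia (SD, n = 24 each), so that neighbours overlapped. Pcdhac1 had means of 0.959 ± 0.425 TPM in the cerebellum and 0.234 ± 0.105 in the lung, and was listed at 0 in each of the 24 normoxia libraries of the liver and of the kidney.

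The cerebellum was then compared with the mean of the other 5 tissues, in normoxia and after IH separately, on log2(TPM + 0.5) after scaling, for the 54 genes whose mean reached 0.1 TPM (Pcdha1, Pcdha8 and Pcdhb1 fell below it). In normoxia 35 of the 54 were called higher in the cerebellum, at an adjusted p of 0.05 or less with limma and at least 1.5-fold, and 0 were called lower. Of all genes tested, 28.4% were called higher and 27.3% lower. After IH, in libraries that share none with the first fit, 34 were higher and 0 lower, against 25.8% and 26.7% of all genes. The 34 were called in both, and Pcdhb5 in normoxia alone. The lung libraries of both treatments entered the choice of the group, and each fit holds those of its treatment. Without the lung libraries, a comparison with the other 4 tissues added after seeing the data, 37 of 55 genes were called higher in normoxia and 36 of 55 after IH, and 0 lower. Of all genes tested there, 5984 of 20959 and 5506 of 20080 were called higher. The median difference of the 54 was 0.86 in normoxia and 0.90 after IH, beside 0.0033 and -0.04 over all genes tested, though a gene can pass the filter through the cerebellum alone, so the count and the median over the genes that passed are descriptions. With no filter, again added after seeing the data, 36 of all 57 genes were called higher in normoxia and 35 after IH. Of all genes in that setting, 6053 of 35484 in normoxia and 5561 of 35350 after IH were called higher. With a pseudocount of 1 the count was 25 in normoxia and 27 after IH, with a median of 0.54 and 0.58, and with a pseudocount of 0.1 it was 42 and 39, with a median of 1.61 and 1.56. Of all genes, 5106 of 21227 and 4941 of 21438 were called higher with a pseudocount of 1, and 7303 and 6633 with 0.1. Members below 0 with an unadjusted p under 0.05 numbered 0 in normoxia and 1 after IH.

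By subfamily, the median difference was highest for the alternate alpha genes and lowest for the gamma B genes. The 9 alternate alpha genes tested in normoxia had a median log2 difference of 1.66 and a range from 0.98 to 3.31, and each was called higher. Means of all 11 lay below 0.1 TPM in the liver, kidney, muscle and heart, and those of 9 in the lung, so these 9 passed the filter through the cerebellum and their count supports nothing. Of 21 beta genes 17 were higher, with a median of 0.89, led by Pcdhb20 at 1.58 with an SE of 0.0396. Of 12 gamma A genes 4 were higher, with a median of 0.32: Pcdhga6 at 1.07, Pcdhga11 at 0.87, Pcdhga12 at 0.75 and Pcdhga8 at 0.72. Of 7 gamma B genes Pcdhgb7 at 0.60 was higher, with a median of 0.07. Of the 5 C-type genes 4 were higher, Pcdhgc4 by 3.95 with an SE of 0.244, Pcdhac2 by 2.23 with an SE of 0.0671, Pcdhgc5 by 1.32 and Pcdhac1 by 1.14, and Pcdhgc3 had a difference of -0.04 with an SE of 0.123. After IH the difference of Pcdhgc4 was 4.81. A floor of 1 TPM over all libraries left 13 genes, of which 9 were higher in each treatment. Of all genes at that floor, 4453 of 15492 were called higher in normoxia and 4547 of 15613 after IH.

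**Figure D2:**
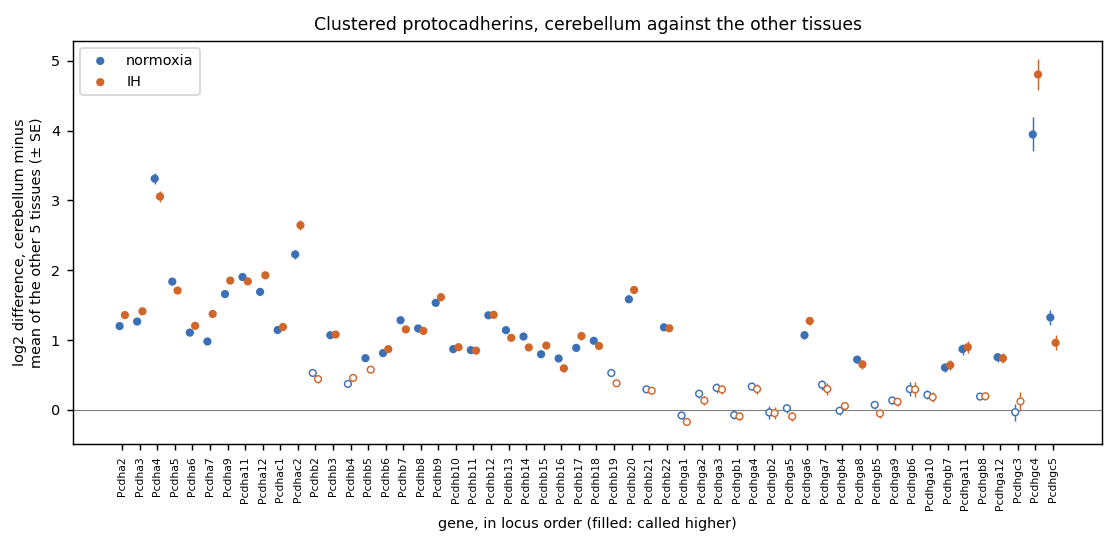
Log2 difference between the cerebellum and the mean of the other 5 tissues (vertical axis, ± SE) for the 54 genes tested (horizontal axis, in locus order), in normoxia (blue) and after IH (orange), with filled points for genes called higher. The alpha and beta genes lie above 0. The gamma A and B genes lie lower as a group, though Pcdhga6 stands at 1.07 and 1.27. Pcdhgc4 is the highest at 3.95 and 4.81.

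Pcdhgc4 rose in the kidney after IH. Its level ran from 0.122 over a median of 1.49 to 3.19 TPM in the 24 normoxia libraries and from 2.86 over 4.43 to 14.996 TPM in the 24 IH libraries. Of the IH libraries 20 lay above every normoxia library, and each of the 24 lay above the normoxia median. The IH mean was the higher at 8 of 8 time points, by 1.67 TPM at 16:30 and by 6.21 TPM at 4:30, where a single library of 14.996 TPM stood out. The log2 difference was 1.503 with an SE of 0.167 (limma, adjusted p = 8.18e-09), and 0.783% of all 12902 genes tested in the kidney were called. Within each replicate number alone the difference was 1.47, 1.92 and 1.12, with adjusted p-values of 0.00705, 0.00389 and 0.00175 (limma, 8 libraries a treatment). Over all kidney genes these fits gave 43, 333 and 348 calls.

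Of the 57 genes, Pcdhgc4 and Pcdhgc3 alone reached a mean of 1 TPM in the kidney. Pcdhgc3 had a mean of 3.84 ± 1.15 TPM in normoxia and 3.08 ± 1.04 after IH (SD, n = 24 each), a log2 difference of -0.27 with an adjusted p of 0.029 in limma that stayed under 1.5-fold. Within replicate 2 alone Pcdhgc3 was called at -0.66 (limma, adjusted p = 0.0114), beside -0.19 in replicate 1 and 0.05 in replicate 3. The gamma genes other than Pcdhgc4 summed to 9.04 ± 2.68 TPM in normoxia and 7.82 ± 2.65 TPM after IH, and the share of Pcdhgc4 in the gamma TPM was 15.2% and 39.5%. With the filter at 0.1 TPM, 29 members were tested in the kidney and Pcdhgc4 was again the sole call. In each of the marker lists 0 genes were called in the kidney in limma, where 0.783% of all genes were called. Some lists had few genes tested, with 0 of 6 for lung and for lymphocyte markers. The part of cell types in the kidney values was not tested. Neuron markers summed to 6.48 to 13.54 TPM in normoxia and 6.50 to 14.7 TPM after IH, with 2 of 11 tested and 1 at an unadjusted p under 0.05, and endothelial markers to 62.6 to 112 and 56.4 to 111 TPM, with 6 of 6 tested and 2 at an unadjusted p under 0.05.

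Pcdhgc4 fell in the liver after IH. Its level ran from 0.00191 over a median of 2.58 to 3.69 TPM in normoxia and from 2.37e-09 over 0.621 to 1.55 TPM after IH. Each of the 24 IH libraries lay below the normoxia median, 16 normoxia libraries lay above every IH library, and the IH mean was the lower at 8 of 8 time points. The log2 difference was -0.89 with an SE of 0.295 (limma, adjusted p = 0.0228), and 3.65% of all 11334 genes tested in the liver were called. The gene passed the filter of 1 TPM through its normoxia level. With a filter of 0.1 TPM, which the means of both treatments pass, the adjusted p was 0.029 at the same difference. Replicate 3 stood apart in both treatments, with a mean of 0.0930 TPM in normoxia and 0.0367 TPM after IH over 8 libraries each, whereas replicates 1 and 2 had means of 2.95 and 2.97 TPM in normoxia and 1.02 and 0.755 TPM after IH. Within replicate 1 the difference was -1.12 and within replicate 2 it was -1.44, with adjusted p-values of 5.54e-06 and 2.63e-05 in limma. In replicate 3 the gene was below the filter. Over all liver genes the fits within replicates 1, 2 and 3 gave 1459, 1001 and 1 calls.

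Pcdhgc3, the other member tested in the liver, had a mean of 1.62 ± 0.936 TPM in normoxia and 1.92 ± 1.15 TPM after IH, a difference of 0.27 with an adjusted p of 0.252 in limma. In normoxia its replicate means were 0.906, 1.11 and 2.85 TPM, so replicate 3 was high where Pcdhgc4 was near 0. Markers of other tissues moved in the liver with the treatment: 6 of 6 heart markers and 3 of 3 kidney markers tested were called higher, and 3 of 6 liver markers were called lower. Heart markers summed to 5.19 to 52.5 TPM in normoxia and to 22.6 to 6578 TPM after IH, and liver markers to 49098 to 89211 and to 1117 to 67011 TPM. Their part in the fall of Pcdhgc4 was not tested. Without the IH library of 13:30 named above, the difference of Pcdhgc4 was -0.88 with an adjusted p of 0.0243. The call was lost with a pseudocount of 0.1 (adjusted p = 0.107) and without replicate 2 (adjusted p = 0.431), both in limma. Of all liver genes, 525 of 11334 and 73 of 11315 were called in these settings.

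In the heart Pcdhgc3 and Pcdhgc4 moved in opposite directions after IH. Pcdhgc3 rose from a range of 1.67 to 13.7 TPM with a median of 6.65 in normoxia to 6.56 to 19.499 TPM with a median of 12.8 after IH. Of the 24 IH libraries 23 lay above the normoxia median and 10 above every normoxia library, and the IH mean was higher at 8 of 8 time points. The log2 difference was 0.75 with an SE of 0.122 (limma, adjusted p = 3.1e-06). Pcdhgc4 fell from a range of 0.339 to 20.0 TPM with a median of 4.95 to one of 0.0913 to 11.6 TPM with a median of 2.78. The treatments overlapped widely, with 17 of 24 IH libraries below the normoxia median and the IH mean lower at 7 of 8 time points. The log2 difference was -0.98 with an SE of 0.378 (limma, adjusted p = 0.0308), and 2.95% of all genes tested in the heart were called.

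Of the 4 members tested in the heart, Pcdhgb2 and Pcdhgb6 had differences of 0.39 and 0.37 with adjusted p-values of 0.00059 and 0.00064 in limma, under 1.5-fold. The gamma genes other than Pcdhgc4 summed to 17.5 ± 6.85 TPM in normoxia and 27.3 ± 7.23 TPM after IH. Both calls of the heart were lost in some settings. Without replicate 1, Pcdhgc3 had a difference of 0.57 and Pcdhgc4 one of -0.41 (adjusted p = 0.5, limma), and once the count of detected genes was a term, Pcdhgc3 was at 0.0265 and Pcdhgc4 at 0.163 and 0 members were called. Within replicate numbers the difference of Pcdhgc4 was -2.11, 0.22 and -1.03, and that of Pcdhgc3 was 1.15, 0.60 and 0.55. Markers moved too: endothelial markers summed to 150 to 373 TPM in normoxia and 251 to 420 TPM after IH (0 of 6 called, 5 at an unadjusted p under 0.05), fibroblast markers to 325 to 765 and 531 to 1006 TPM (0 of 6 called, 5 at an unadjusted p under 0.05), smooth muscle cell markers to 331 to 645 and 443 to 906 TPM (2 of 5 called higher), and neuron markers to 12.9 to 30.4 and 13.7 to 114 TPM (1 of 6 tested called higher). The neuron sum had a median of 21.0 TPM in normoxia and 28.7 after IH. Cerebellum markers reached 137 TPM after IH around a median of 1.83 TPM (1 of 2 tested called higher). Other lists reached higher in normoxia. Lung markers summed to 0.274 to 2002 TPM there and 0.109 to 641 after IH (0 of 2 tested called). Lymphocyte markers summed to 2.09 to 781 and 1.80 to 201 TPM (0 of 4 tested called). The part of all these markers in the heart values was not tested.

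In muscle 0 of 5 members tested were called in limma, 0 had an unadjusted p under 0.05, and 0.374% of all genes were called. Pcdhgc4 held 1.80 to 16.2 TPM with a median of 6.45 in normoxia and 1.63 to 10.51 TPM with a median of 5.45 after IH, a difference of -0.21 with an SE of 0.182 and an adjusted p of 0.518 in limma. Pcdhgc3 held 9.42 to 30.9 and 10.9 to 32.9 TPM, a difference of -0.05. Within replicate numbers the difference of Pcdhgc4 was 0.80, -0.73 and -0.71, so its direction was not shared by the replicates, and without replicate 1 it was called at -0.72 (limma, adjusted p = 0.00283).

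In the cerebellum 0 of 35 members tested were called in limma, 2 had an unadjusted p under 0.05, and 2.64% of all genes were called. The median log2 difference of the 35 was 0.02, beside -0.01 over all genes tested. Pcdhgc4 had 9 of 24 IH libraries above every normoxia library and 3 below every one, and its IH mean was higher at 7 of 8 time points. Its log2 difference was 0.12 with an SE of 0.207 and an adjusted p of 0.745 in limma. That of Pcdhgc3 was 0.21, of Pcdhac2 0.31 and of Pcdhgc5 -0.30, none of them called. Within replicate 2 alone Pcdhgc4 was called at 0.82 (limma, adjusted p = 0.00753), beside -0.46 and -0.01 in the others. Within replicate 1 alone Pcdha4 was called at -1.44 (limma, adjusted p = 0.00398), beside -0.24 and 0.61 in the others. Over all genes the fits within replicates 1, 2 and 3 gave 918, 1093 and 0 calls. Without the low-marker library of 1:30 the count of member calls was again 0. Without replicate 3 it was 2 of 35, Pcdhac2 at 0.60 and Pcdha4, in a fit that called 1973 of all 15084 genes.

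In the lung, the tissue whose values chose the group, Pcdhgc4 held 1.24 to 80.2 TPM with a median of 32.6 in normoxia and 1.24 to 19.1 TPM with a median of 2.47 after IH. Each of the 24 IH libraries lay below the normoxia median, 16 normoxia libraries lay above every IH library, and the IH mean was lower at 8 of 8 time points. The log2 difference was -2.95 with an SE of 0.351. By replicate number the normoxia means were 12.2, 37.7 and 60.6 TPM and the IH means 6.46, 4.26 and 4.40 TPM, which gives log2 differences of -1.29, -3.32 and -4.27. Without the 7 IH libraries with low lung markers, the IH mean was 5.89 TPM with a range from 1.24 to 19.1 TPM.

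Of the 28 members that passed the filter in the lung, a mean of 1 TPM over its 48 libraries, Pcdhgb8 differed most in the upward direction. It held 0.371 to 0.786 TPM with a median of 0.582 in normoxia and 0.926 to 6.17 TPM with a median of 2.06 after IH. These ranges did not overlap, and the share of all lung genes without overlap was not determined. Pcdhgb8 is annotated as a polymorphic pseudogene. It passed the filter through its IH level. Its log2 difference was 1.01 with an SE of 0.0902, and in the 17 IH libraries with higher lung markers it held 0.926 to 2.93 TPM. Pcdhga9 at 0.48 and Pcdhgc5 at 0.46 followed, Pcdhac2 at -0.50 and Pcdhb9 at -0.49 were next to Pcdhgc4 downward, and Pcdhgc3 was at -0.36. As a description with no test, 2 of the 28, Pcdhgb8 and Pcdhgc4, lay past the thresholds used for the other tissues, as did 13.48% of all genes of the lung, and nothing is read from this count. The median of the 28 was 0.09, beside -0.08 over all genes. On the values as deposited the median of all genes was 0.21, so a small difference in the lung takes its sign from the scaling.

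Beside these lung values, 4 of 6 endothelial and 4 of 6 lung markers lay past both thresholds downward after IH, with median log2 differences of -0.71 and -0.76. So did 2 of 6 lymphocyte, 1 of 6 fibroblast and 1 of 4 neuron markers tested. Upward past them lay 2 of 6 heart, 1 of 5 muscle and 1 of 4 Schwann cell and oligodendrocyte markers tested. Of all lung genes, 13.48% lay past both thresholds in either direction. Endothelial markers summed to 662 to 1481 TPM in normoxia and 582 to 1258 TPM after IH, lung markers to 136270 to 264340 and 34723 to 205410 TPM, and neuron markers to 55.1 to 73.6 and 42.3 to 62.4 TPM. Cerebellum markers summed to at most 5.78 TPM in the lung. The part of these in the lung values was not tested.

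**Figure D3:**
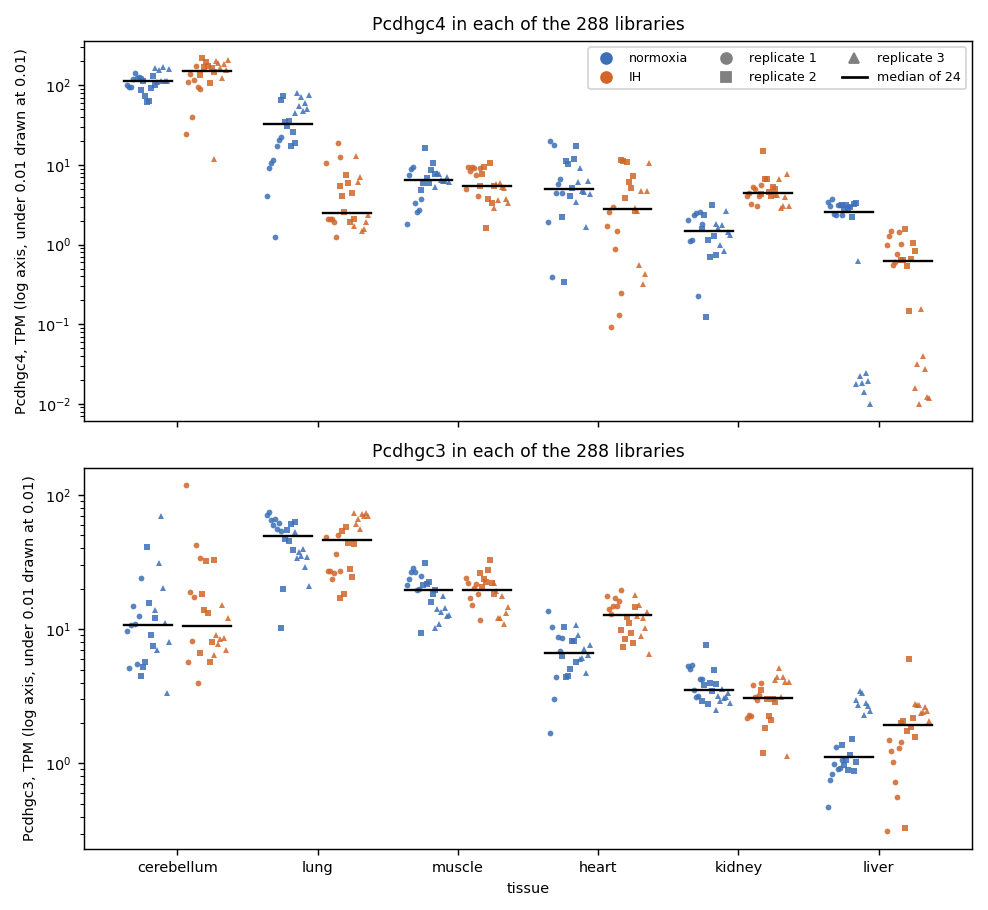
TPM of Pcdhgc4 (upper panel) and Pcdhgc3 (lower panel) in each of the 288 libraries on a log axis, by tissue, with normoxia in blue, IH in orange, symbols for the replicate number and bars at the median of 24 libraries. Pcdhgc4 lies higher after IH in the kidney and lower in the lung and liver, and in the liver the replicate 3 libraries lie below those of replicates 1 and 2 in normoxia, and after IH reach into the range of replicate 2.

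**Figure D4:**
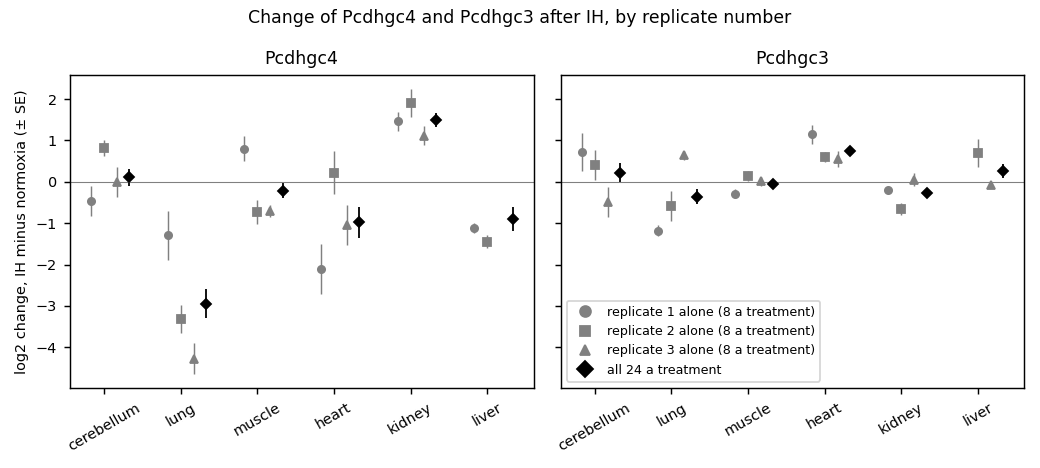
Log2 difference between IH and normoxia (± SE) of Pcdhgc4 and Pcdhgc3 per tissue, within each replicate number (grey, 8 libraries a treatment) and over all 24 libraries a treatment (black diamonds). The kidney differences of Pcdhgc4 lie above 0 in every replicate number (1.47, 1.92 and 1.12), while those of muscle, heart and cerebellum differ in sign between replicate numbers.

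Whether the change after IH differed between tissues was tested without the lung, over the 240 libraries of the other 5 tissues. Of 6 members whose mean over them reached 1 TPM, 3 were called by the interaction of treatment and tissue in limma: Pcdhgc4 (adjusted p = 5.44e-08), Pcdhgc3 (adjusted p = 0.000446) and Pcdhac2 (adjusted p = 0.0313). Of all 14930 genes tested, 62.6% were called. For Pcdhgc4 the differences were 1.503 in the kidney, 0.12 in the cerebellum, -0.21 in muscle, -0.89 in the liver and -0.98 in the heart. For Pcdhgc3 they were 0.75 in the heart, 0.27 in the liver, 0.21 in the cerebellum, -0.05 in muscle and -0.27 in the kidney. Pcdhac2 passed the filter through the cerebellum, with means of 5.29 TPM in normoxia and 6.95 after IH against at most 0.145 TPM in the other 4 tissues, and its call was lost on the values as deposited and without replicate 1 or 2.

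Across libraries, Pcdhgc4 and the other 21 gamma genes went in opposite directions in some tissues. These genes share constant exons and, within a library, the quantification and the sum to which TPM is scaled. The following is therefore a description over the 24 libraries of each set. In the lung in normoxia, Pearson's r between Pcdhgc4 and the summed other gamma genes was -0.90 and Spearman's rho -0.93, and r was -0.91 without the 2 libraries farthest from the median of Pcdhgc4. The coefficient of variation was 67.2% for Pcdhgc4, 35.0% for the sum of the others and 11.1% for the sum of all 22, and each of the other 21 genes had a negative rho with Pcdhgc4, with Pcdhgc3 at -0.94 and Pcdhgb5 at -0.94. The total of the gamma genes thus varied far less between libraries than its parts did. Pcdhac2, which lies in the alpha cluster and has none of these exons, had a rho of -0.90. With the summed beta genes, which lack constant exons, Pcdhgc4 had an r of -0.68 and a rho of -0.72. In the same libraries rho with the number of genes detected was 0.57 for Pcdhgc4 and -0.60 for the other gamma genes together, and its part in the relation was not tested.

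The same direction appeared in the liver and the heart. In the liver r was -0.94 and rho -0.77 in normoxia, with coefficients of variation of 71.3% for Pcdhgc4, 59.9% for the others and 12.2% for the sum, and -0.54 and -0.74 after IH. In the heart r was -0.63 in normoxia and -0.72 after IH, with 21 of 21 genes at a negative rho in each. In the lung after IH r was 0.04 and rho -0.01. In the kidney r was -0.28 in normoxia and -0.44 after IH, and -0.05 after IH without the 2 farthest libraries. In muscle r was 0.15 and 0.07, and in the cerebellum -0.02 and -0.31. With the summed beta genes, r of Pcdhgc4 was -0.63 in the liver in normoxia and -0.19 after IH. In the heart it was -0.26 and -0.49. It lay between -0.12 and 0.20 in the lung after IH and in the kidney, muscle and cerebellum.

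Levels of these genes also differed by replicate number, in the lung in normoxia with means of 12.2, 37.7 and 60.6 TPM for Pcdhgc4 beside 63.4, 42.4 and 35.3 TPM for Pcdhgc3. Within each replicate number, over 8 libraries, r between Pcdhgc4 and the other gamma genes was -0.70, -0.90 and -0.70 in the lung in normoxia, so the direction was there within each. In the liver in normoxia it was -0.68, -0.34 and -0.06, each nearer 0 than the -0.94 over the 24 libraries, and after IH 0.81, -0.70 and -0.30. In the heart it was -0.85, -0.50 and -0.10 in normoxia and -0.28, -0.39 and -0.66 after IH. In the lung after IH it was 0.72, 0.51 and -0.72, with no shared direction.

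**Figure D5:**
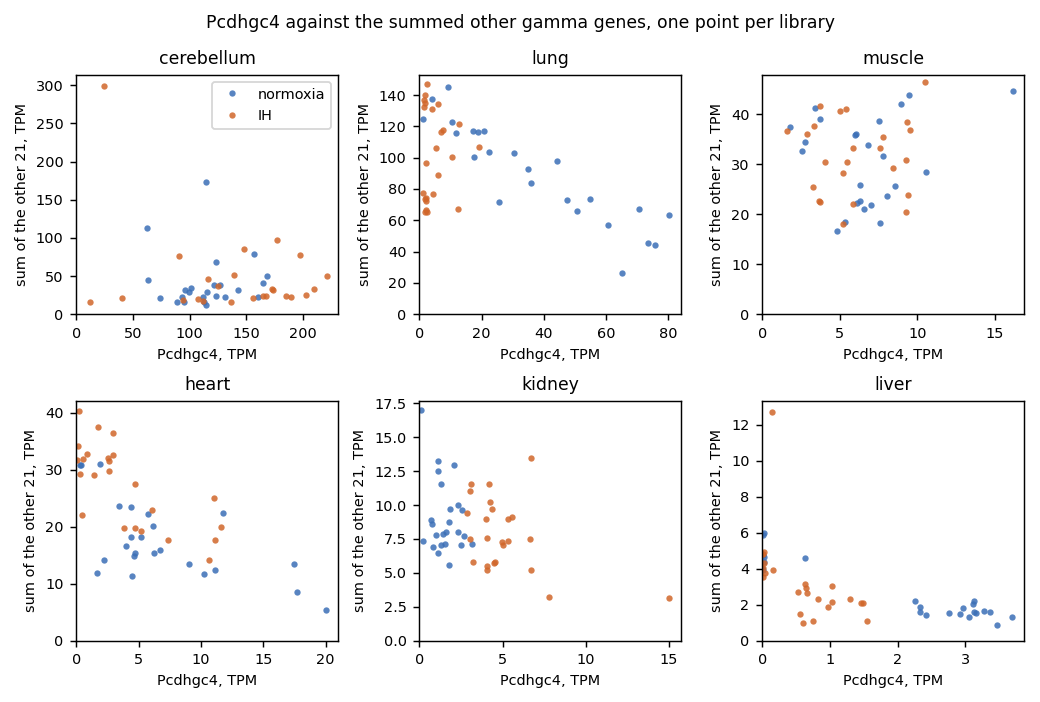
Pcdhgc4 (horizontal axis, TPM) against the sum of the other 21 gamma genes (vertical axis, TPM) in each library of the 6 tissues, with normoxia in blue and IH in orange. In the lung in normoxia the points fall along a descending line (r = -0.90), while those of muscle and cerebellum do not.

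Totals over the gamma cluster are given as a description. The 22 gamma genes summed to 127 ± 14.035 TPM in the lung in normoxia and 107 ± 28.9 TPM after IH, and without Pcdhgc4 to 90.2 ± 31.6 and 102.05 ± 28.4 TPM (SD, n = 24 each). In the kidney the sums were 10.6 ± 2.57 and 12.9 ± 2.71 TPM, in the heart 24.4 ± 5.44 and 31.3 ± 5.20, in the liver 4.67 ± 0.570 and 3.88 ± 2.10, in muscle 37.3 ± 9.72 and 37.8 ± 8.27, and in the cerebellum 157 ± 46.4 and 189 ± 68.1 TPM. The gamma cluster held 83.4% of all clustered protocadherin TPM of the lung in normoxia and 73.9% of that of the cerebellum, where the alpha cluster held 12.2%. In the lung the alpha cluster held 5.13%.

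The course over the day gave 1 call for a member in 12 sets of tissue and treatment. Pcdhga7 in the kidney in normoxia had a cosine of 24 hours with an amplitude of 0.19 on the log2 scale and a peak at 4.89 hours (limma, adjusted p = 0.0487), with 18.7% of all genes called in that set, the highest of the 12 sets, and 5.42% of all gene tests over the 12. Its levels there ran from 0.340 to 1.10 TPM, and the call was lost on the linear scale, on the values as deposited and without each replicate. In the cerebellum 54 members in normoxia and 55 after IH had a maximum of at least 1 TPM. Of these 0 were called in limma, with 5 and 1 at an unadjusted p under 0.05. Of all genes, 0.00482% and 0.0108% were called there, so 0 calls among the members says nothing particular to them. In the lung 0 of 32 and 0 of 35 were called in limma, beside 8.33% and 3.1% of all genes. There 2 and 4 members had an unadjusted p under 0.05. Pcdhgc4 was called in none of the 12 sets, and its lung means in normoxia ran from 28.2 TPM at 13:30 to 54.3 TPM at 4:30, with libraries of 1.24 to 47.5 TPM and 9.14 to 80.2 TPM behind those means.

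Outside the lung, 1 gene that acts on the locus or beside the proteins was called. Among 18 regulators of the cluster, with CTCF, the cohesin subunits and their loaders, Smchd1, DNA methyltransferases and Setdb1 among them, Smc1a, a core subunit of cohesin, fell in the liver by 0.60 on the log2 scale with an SE of 0.136 (limma, adjusted p = 0.00114), and 0 of 17 tested in each of the kidney, muscle, heart and cerebellum were called, with 2 to 9 per tissue at an unadjusted p under 0.05. In the liver 11 of the 17 tested had an unadjusted p under 0.05 and their median was -0.22, beside 3.65% of all genes called, and the part of the heart, kidney and liver markers that moved there was not tested. Among 18 partners of protocadherin signalling and processing, such as Ptk2, Adam10 and the WAVE complex, 0 of 15 to 18 tested were called in limma in these 5 tissues, with 0 to 9 at an unadjusted p under 0.05. Of 11 non-clustered protocadherins 0 of 2 to 7 tested were called there in limma, with 1 to 3 at an unadjusted p under 0.05. In the lung, as a description, Dnmt3a was higher by 0.74, and Rac1 at -0.59 and Pcdh18 at -0.64 were lower.

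The genes whose levels went most like Pcdhgc4 across libraries differed between tissues. They were taken as the 5 genes outside the clusters with the highest smaller rho of the normoxia and IH sets, 24 libraries each, which share library and scaling. In the lung these were Asgr1 (0.61 in normoxia and 0.60 after IH), Mcm3 (0.76 and 0.59), Iqcd, 2310033P09Rik and Acat1, of 15398 genes searched. In the cerebellum 0610010K14Rik came first with 0.82 and 0.84, followed by Krt25, Yipf3, Ypel3 and Rab33a, and in the heart Gm6158 with 0.82 and 0.84, followed by Commd1b, Serf2, Gm5831 and Rpl28. In the liver Gm9747 came first with 0.81 and 0.88, followed by Lamtor2, Smdt1, Ntan1 and Uqcc3. In the kidney Gm9747 also came first with 0.54 and 0.55, followed by Insl3, Psma3, Fam221b and Gm10718, and in muscle the genes were Serf1, Fam167b, Arhgap15, Rab13 and Odf3l1.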

How the data were processed

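RNA was measured in 288 libraries, 24 for each of 6 tissues and 2 treatments, grouped by the labels. The authors quantified reads with Kallisto (version not given in the sources used here) against the Ensembl mouse transcriptome, release 102 (mm10), summed transcripts to genes and deposited TPM. They ran DESeq2 on estimated counts, which are not analysed here. Libraries were scaled by the median of ratios and taken as log2(TPM + 0.5). limma 3.58.1 in R 4.3.3, with an intensity trend, tested treatment per tissue (mean of at least 1 TPM), cerebellum against the other tissues (0.1 TPM), treatment by tissue, and a cosine and sine of 24 hours (maximum of at least 1 TPM). Calls needed a Benjamini-Hochberg adjusted p of 0.05 over all genes tested and, between groups, 1.5-fold. Tests were 2-sided, and replicates are separate mice.

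Named were the C-type genes, each gene called between treatments or as rhythmic, the highest per subfamily and tissue in normoxia, the lowest of the cerebellum, the 3 largest rises and falls in the lung, and the 5 genes most like Pcdhgc4. The members and lists were chosen with earlier results of these data known, and the split by replicate number was made after values were seen. Positions come from GENCODE mouse release 21. Levels were summarised with Python 3.11.15, pandas 2.3.3 and scipy 1.17.1, and the tests were tested on simulated data. Tests were repeated with another pseudocount, filter or scaling, with time point or replicate block in the model, and without each replicate number. Models with the count of detected genes, without the least correlated library, without the lung or without a minimum level were chosen after seeing the data.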

Additional observations from a re-analysis of the deposited data

Results flagged for a closer look

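For 3 of 6 members the effect of IH differed between tissues by a test of that difference, which called 62.6% of all genes tested, a larger share than among the members. Without replicate 1 it called 4239 of 14885 genes and without replicate 3 it called 11171 of 14915. The difference between IH and normoxia varied between the 5 tissues other than the lung for Pcdhgc4 (limma interaction, adjusted p = 5.44e-08), with 1.503 in the kidney and -0.98 in the heart. It also varied for Pcdhgc3 (adjusted p = 0.000446), with 0.75 in the heart and -0.27 in the kidney. For Pcdhac2 the adjusted p was 0.0313 in limma, in a gene that passed the filter through the cerebellum, with means of 5.29 TPM in normoxia and 6.95 after IH, and lay near 0 TPM in the other 4 tissues. Without the library of lowest correlation in each tissue, Pcdhb20 was called beside these.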

How the results depend on the processing

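Across 349 alternative values, 301 were classed as unchanged, 104 of 131 among the counts of calls. A count has no direction, so its class rests on its size alone. A log2 difference called neither in the main fit nor in the alternative was classed as unchanged even where its sign turned. In the lung, whose values chose the group, the members past both thresholds numbered 2. They numbered 4 with a pseudocount of 0.1, 1 at a floor of 5 TPM and 5 on the values as deposited. Over all genes these settings gave 2415 of 15426, 1182 of 11698 and 2966 of 15426. With genes detected as a term the members numbered 10 of 28, beside 1686 of 15426 genes. Without each replicate in turn they numbered 2 to 7, 4 without replicate 1 and 7 without replicate 3. Over all genes the fits without replicates 1, 2 and 3 gave 2056 of 15382, 1509 of 15278 and 3441 of 15590. With genes detected as a term, Pcdhgc3 in the lung turned to 0.968 and Pcdhgc4 in the heart to 0.163. The liver call was lost with a pseudocount of 0.1 (0 called), at a floor of 5 TPM (0 called, none tested) and without replicate 1, where Pcdhgc4 fell under the filter, or replicate 2 (0 to 1 without each replicate). Of all liver genes, 525 of 11334 were called with that pseudocount and 338 of 7197 at that floor. Without replicates 1, 2 and 3 the liver fits called 48 of 11438, 73 of 11315 and 1491 of 11211 genes. The kidney gave 0 at 5 TPM, where no member was tested. Muscle gave 0 to 1, with Pcdhgc4 called without replicate 1, where 63 of all 12853 genes were called. The heart gave 0 with genes detected as a term and 0 to 2 without each replicate, 0 without replicate 1 and 1 without replicate 3. Of all heart genes, 139 of 12779 were called with that term, 271 of 12826 without replicate 1 and 488 of 12641 without replicate 3. The cerebellum gave 0 to 2, with 2 of 35 without replicate 3, beside 1973 of all 15084 genes. Higher in the cerebellum were 9 in normoxia and 9 after IH at a floor of 1 TPM, where 13 were tested. Of all genes there, 4453 of 15492 and 4547 of 15613 were called higher. Interaction calls numbered 15 of 55 members at a floor of 0.1 TPM, beside 11587 of all 20583 genes. Without each replicate they numbered 2 to 5, with 5 of 6 without replicate 3, beside 11171 of 14915 genes. Beyond smaller or other sets of genes and libraries, the causes were not tested.

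The rhythm call was lost on the linear scale (0), on the values as deposited (0) and without each replicate in turn (0 to 0). At a mean of 1 TPM the count was also 0, but Pcdhga7, with a mean of 0.582 TPM in that set, was not tested there. With a replicate block, 3 sets were called: Pcdhga7 in the kidney in normoxia, Pcdhga9 in the lung after IH and Pcdhgc3 in muscle in normoxia. Replicate numbers were not taken as pairs, since the labels name no shared batch and in no tissue was the correlation of same-numbered libraries' deviations over 0.1 in every pair. It was in 6 of 24 pairs in the lung to 22 of 24 in the liver, where the median was 0.32. The replicate block changed no other call, with 2 members called in the lung, 1 each in the liver and kidney, 0 in muscle, 2 in the heart, 0 in the cerebellum, 35 and 34 higher in the cerebellum and 3 for the interaction. Depth is unknown, so the precision of low levels cannot be given.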
